A study of Mus musculus with 20 samples.

Results

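Loss of Spdef was compared with wild type in the fetal pools of RNA whose channels both carried a colon profile. Spdef, an ETS-family transcription factor, is made in goblet and Paneth cells. The pools are those labelled fetal small intestine 3 and fetal colon 2, each hybridised as an array and a dye swap, so the set holds 4 of the 20 arrays and 2 of the 10 pairs of pools of the series. They were chosen by measured levels of Hoxd10 and Hoxd13, transcription factors of the hindgut, and 1 of the 2 pairs is therefore placed against its label. For short, the pair labelled fetal small intestine 3 is called the S3 pair and the pair labelled fetal colon 2 the C2 pair. Both hold Spdef ko mice against wildtype mice at E18.5 (an embryonic age in days). They are set beside the other fetal pairs (those labelled fetal small intestine 1, fetal small intestine 2 and fetal colon 1, 6 arrays, E18.5) and beside adult colon at P30 (postnatal day 30, 3 pairs, 6 arrays), all of them Spdef ko against wildtype. Every pool was total RNA of whole dissected organs from 2 to 3 littermates. The labels name the line as Spdef-/- and give no strain, no sex and no account of which exons were removed. They also do not say whether pools of different pairs came from different litters, so p-values measure the spread between these pools.

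Goblet cells are the mucus-making secretory cells of the gut epithelium and are most frequent in the colon. They arise from progenitors that escape Notch signalling and express Atoh1, and Spdef acts after that choice, as the cells mature. A mature goblet cell makes Muc2, the gel-forming mucin of intestinal mucus, in its endoplasmic reticulum with the help of the disulfide isomerase Agr2, and adds O-linked sugars to it in the Golgi. Like other ETS factors, Spdef binds short DNA sites, and it is known for a GGAT core where most of the family prefer GGAA. Absorptive colonocytes, enteroendocrine cells and, in the small intestine, Paneth cells make up most of the remaining epithelium.

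The colon profile was strong in the S3 and C2 pairs and missing from the other fetal pairs. Levels are log2 normalised intensity, averaged over an array and its dye swap. Hoxd10 was at 9.34 in the KO (knockout) pool and 8.96 in the wild type pool of the S3 pair, and at 9.21 and 9.37 in the C2 pair. The 6 channels of the other fetal pairs ran from 7.01 to 7.08 and were not well above background on any array. Hoxd13 was at 10.59 and 10.21 in the S3 pair and 10.36 and 9.98 in the C2 pair, against 6.91 to 7.23 in the other fetal pairs. These values chose the pairs and are a description. The same split ran through the further genes given next, which the choice did not name, as the plot of tissue markers shows. Hoxb13, another posterior homeobox gene, ran from 11.15 to 11.64 in the S3 and C2 pairs and from 6.93 to 7.06 in the others. The carbonic anhydrase Car1, a colonocyte gene, ran from 10.76 to 11.12 against 7.52 to 7.62. Genes of the small intestine ran the opposite way: lactase (Lct) was at 8.76 to 9.08 in the S3 and C2 pairs and at 15.99 to 16.42 in the others. The apolipoprotein Apoa4 was at 8.79 to 9.62 against 16.41 to 16.92, and intestinal alkaline phosphatase Alpi at 8.89 to 9.75 against 13.12 to 13.62. For Hoxb13, Car1, Lct, Apoa4 and Alpi, no range of the S3 and C2 pairs overlapped that of the other fetal pairs. They were picked as tissue markers, and the share over all genes was not worked out. The pair labelled fetal colon 1 lay with the small intestine on each of these genes and on Hoxd10 and Hoxd13. It was hybridised on the same slide as the S3 pair. The C2 pair shared its slide with the third adult colon pair. Not every colon gene split the fetal pairs: Hoxd12 ran from 7.07 to 7.08 in the S3 and C2 pairs and from 7.06 to 7.14 in the others. The summed intensity of 15 colon identity genes did not split them either, at 27217 to 30291 against 27536 to 33990. That of 31 small intestine identity genes did, at 66476 to 69864 against 419574 to 514610.

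**Figure D1:**
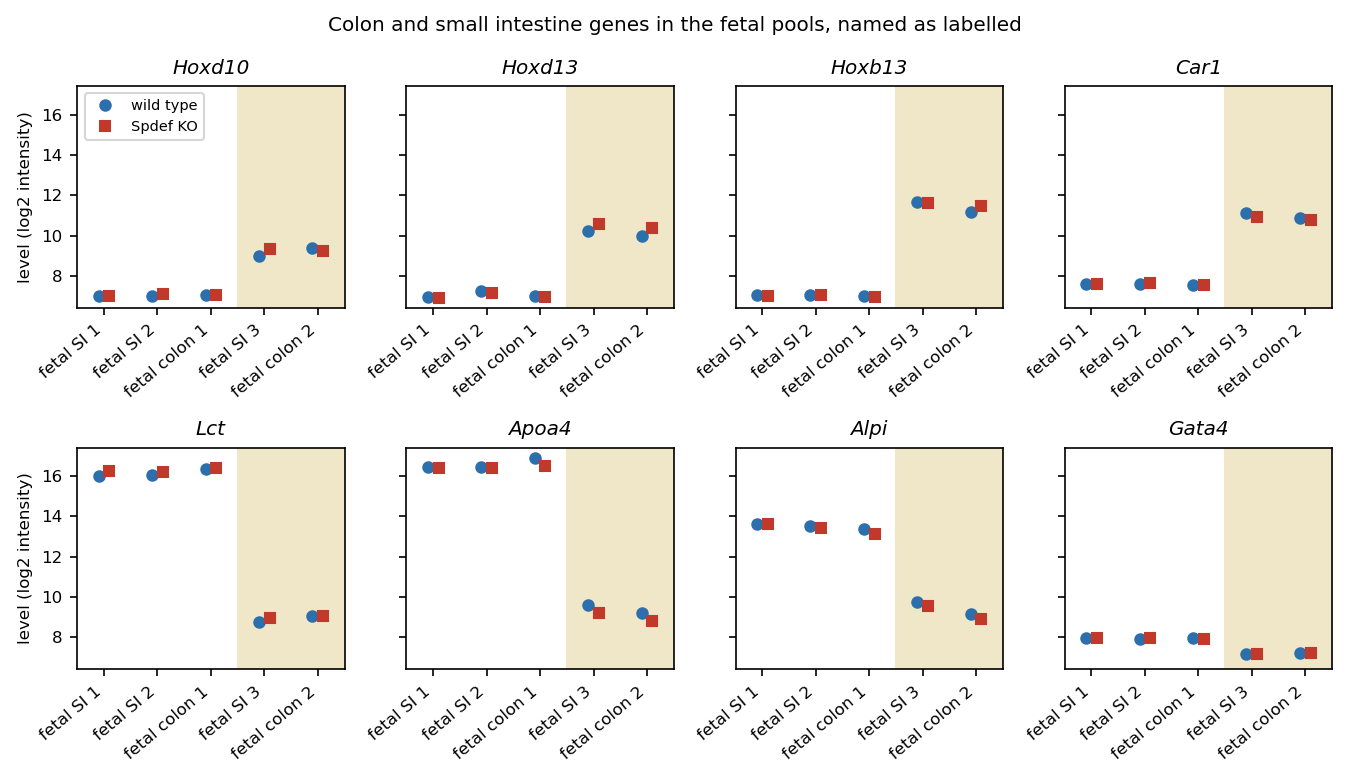
Log2 normalised intensity (vertical axis) of 8 tissue marker genes in the KO (squares) and wild type (circles) pools of the 5 fetal pairs (horizontal axis), each point the mean of an array and its dye swap. The shaded S3 and C2 pairs sit high for Hoxd10, Hoxd13, Hoxb13 and Car1 and low for Lct, Apoa4, Alpi and Gata4, and the pair labelled fetal colon 1 lies with the pairs labelled fetal small intestine 1 and 2.

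The pools also differed in their make-up of X and Y genes, and did so differently in the S3 and C2 pairs. Xist is the RNA that coats the inactive X chromosome in female cells, and Eif2s3y, Ddx3y and Kdm5d are on the Y chromosome. In the S3 pair, Xist was at 11.88 in the KO pool and 13.01 in the wild type pool. Eif2s3y was at 10.46 in its KO pool and 6.94 in its wild type pool, where none of the 3 Y genes was well above background on any array. In the C2 pair, Xist was at 12.63 in the KO pool and 8.03 in the wild type pool, and Eif2s3y at 10.31 and 11.05. The KO over wild type ratio of Xist was thus -1.12 in the S3 pair and 4.60 in the C2 pair on the log2 scale. In this respect the pairs went with their labels and not with their tissue profile. Wild type Xist was at 11.67 and 11.76 in the pairs labelled fetal small intestine 1 and 2 and at 7.27 in fetal colon 1. Wild type Eif2s3y was at 7.36, 6.89 and 11.14 in the same order. The mix of sexes in a pool can therefore bear on any gene of the X or Y chromosome, and its part was not tested. Among the genes called below is 1 such gene, Xlr3c, with ratios of 0.93 and 1.38 in the 2 pairs. Leaving out all genes of both chromosomes gave 36 called genes where the full table gave 37.

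**Figure D2:**
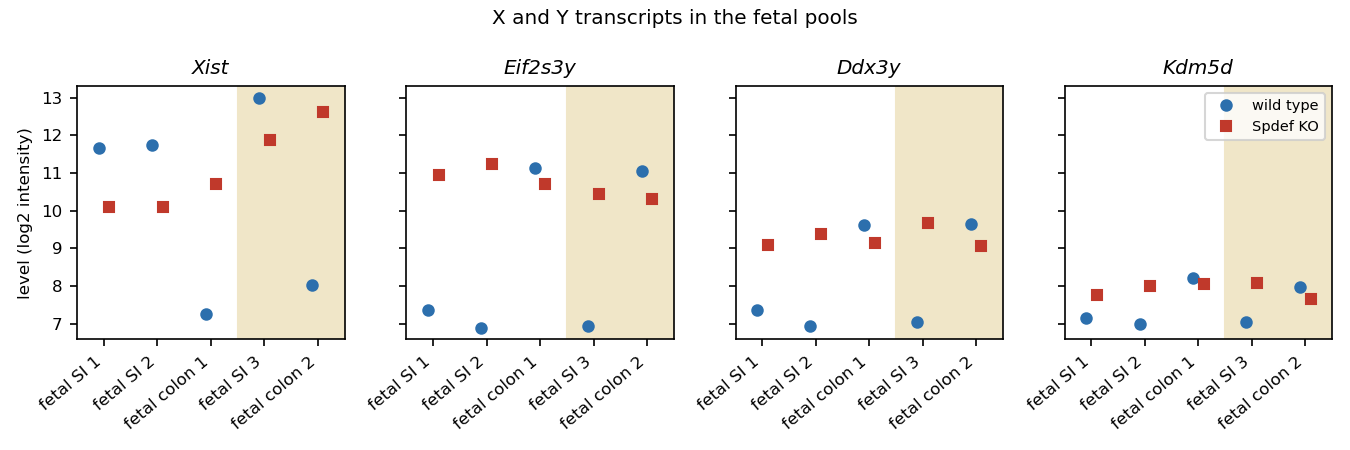
Log2 normalised intensity (vertical axis) of Xist and 3 Y-linked genes in the KO (squares) and wild type (circles) pools of the 5 fetal pairs (horizontal axis), each point the mean of an array and its dye swap. The wild type pool of the S3 pair has the higher Xist and no Y gene above background, whereas the C2 pair has the higher Xist in its KO pool.

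Spdef itself, the targeted gene, was lower in the KO pool on all 4 arrays. Its log2 ratio of KO over wild type was -3.01 and -3.83 on the array and dye swap of the S3 pair, and -1.61 and -3.94 on those of the C2 pair. The first C2 array stands apart from its swap. The mean fell by 3.10 ± 0.27 (limma SE, n = 2 pairs), or 8.56-fold, with an adjusted p of 0.00366 in limma (Benjamini-Hochberg over all 17697 genes tested). Each SE given is limma's, which pools the spread of all 9 replicates of the series and is not the spread of the 2 pairs alone. The signal left in the KO pools was well above background on all 4 arrays, and whether the probe (chromosome 17, 27442294 to 27442353, build mm8) lies in the removed part is not given in the sources used here.

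Beyond Spdef, the KO pools had less RNA of goblet cell secretory genes and more of 5 genes, Zg16 and Pyy among them. At an adjusted p under 0.05, 32 genes fell (0.181% of those tested) and 5 rose (0.0283%), and each of the 37 had the same sign on all 4 arrays. Of the 32 lower genes, 31 were well above background on all arrays in both genotypes. The exception was Ceacam10, whose KO channel was so on 2 of 4 arrays. In whole-organ RNA, fewer cells of a type and less RNA per cell cannot be told apart. An unadjusted p under 0.05 was reached by 1653 genes. Scaling moved the balance of directions: with each array centred on its median 15 fell and 6 rose, and with the log2 ratios of the authors' deposited table there were 130 that fell and 103 that rose. That centring set the median of all genes at 0.16, against 0.01 under loess, and all 37 genes kept their sign under both.

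The gel-forming mucin and its isomerase were among the lower genes. Muc2 was at -1.91 and -1.99 in the S3 pair and -2.09 and -2.28 in the C2 pair, and fell by 2.07 ± 0.14, or 4.19-fold (limma SE, n = 2 pairs, limma adjusted p = 0.00115). All 4 arrays thus lay within a narrow span, and the wild type pools were at 13.70 and 13.51 against 11.75 and 11.33 in the KO pools. That is the brightest of 4 Muc2 probes (chromosome 7, 141565366 to 141565425, mm8). The other 3 gave -0.15, -0.52 and -0.46, so the size of the change depends on the probe, and the mean of all 4 was -0.80, still called. Agr2 was at -0.91 and -1.77 in the S3 pair and -0.73 and -1.77 in the C2 pair, and fell by 1.30 ± 0.05, or 2.46-fold (limma SE, n = 2 pairs, limma adjusted p = 0.000124, the smallest of the comparison). Both pairs show the dye swap further from 0 than the first array, so the pairs agree more closely in their means than their arrays do. Creb3l4, a membrane-bound bZIP factor of the endoplasmic reticulum, was at -2.69 and -2.97 in the S3 pair and -1.56 and -3.02 in the C2 pair, and fell by 2.56 ± 0.30, or 5.89-fold (limma SE, n = 2 pairs, limma adjusted p = 0.0192). As for Spdef, the first C2 array was the least changed.

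Enzymes that start the O-glycosylation of mucins fell as well. Galnt12, one of the GalNAc transferases that put the first sugar on serine or threonine, was at -1.23 and -1.51 in the S3 pair and -1.28 and -1.44 in the C2 pair. It fell by 1.36 ± 0.07, or 2.58-fold (limma SE, n = 2 pairs, limma adjusted p = 0.000308). Its relatives Galnt3 and Galnt6 fell by 0.89 and 0.95 on the log2 scale (adjusted p = 0.0032 and 0.0195), and a second probe of each gave -0.79 and -0.64. Gfpt1, which makes the sugar precursor glucosamine 6-phosphate, fell by 0.58 on its brightest probe, and its other 2 probes gave -0.21 and -0.37. These 4 were the called members of a list of 57 tested genes of mucin glycosylation, and none rose. The list's median was -0.12, beside 0.01 over all genes tested. With each array centred on its median the list's median was 0.02, a change of sign, and lay 0.14 below that of all genes. The transmembrane mucin Muc20 fell by 0.80 (adjusted p = 0.0093).

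Several called genes encode secreted proteins or proteins of the cell surface. Tpsg1, a transmembrane tryptase, was at -1.46 and -1.92 in the S3 pair and -1.37 and -1.95 in the C2 pair, and fell by 1.68 ± 0.10, or 3.19-fold (limma SE, n = 2 pairs, limma adjusted p = 0.000772). All 4 arrays were below -1. Hgfac, a serine protease that activates hepatocyte growth factor, fell by 1.48. Spink4, a small protease inhibitor of goblet cells, fell by 1.58 ± 0.21 (adjusted p = 0.0315). The chemokines Ccl6 and Ccl9 fell by 1.41 and 1.29, the potassium channel gene Kcnk6 by 1.47, the transporter gene Slc12a8 by 1.10 and Cgref1 by 1.54. The first C2 array was nearest 0 for Ccl9 and Kcnk6, at -0.55 and -0.78, though not for Cgref1. Nupr1, a stress-responsive chromatin protein, fell by 1.09 and the Rap1 GTPase regulator Rap1gap by 0.98, though its second probe gave -0.28. The plot of all named called genes gives the 4 arrays of each.

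**Figure D3:**
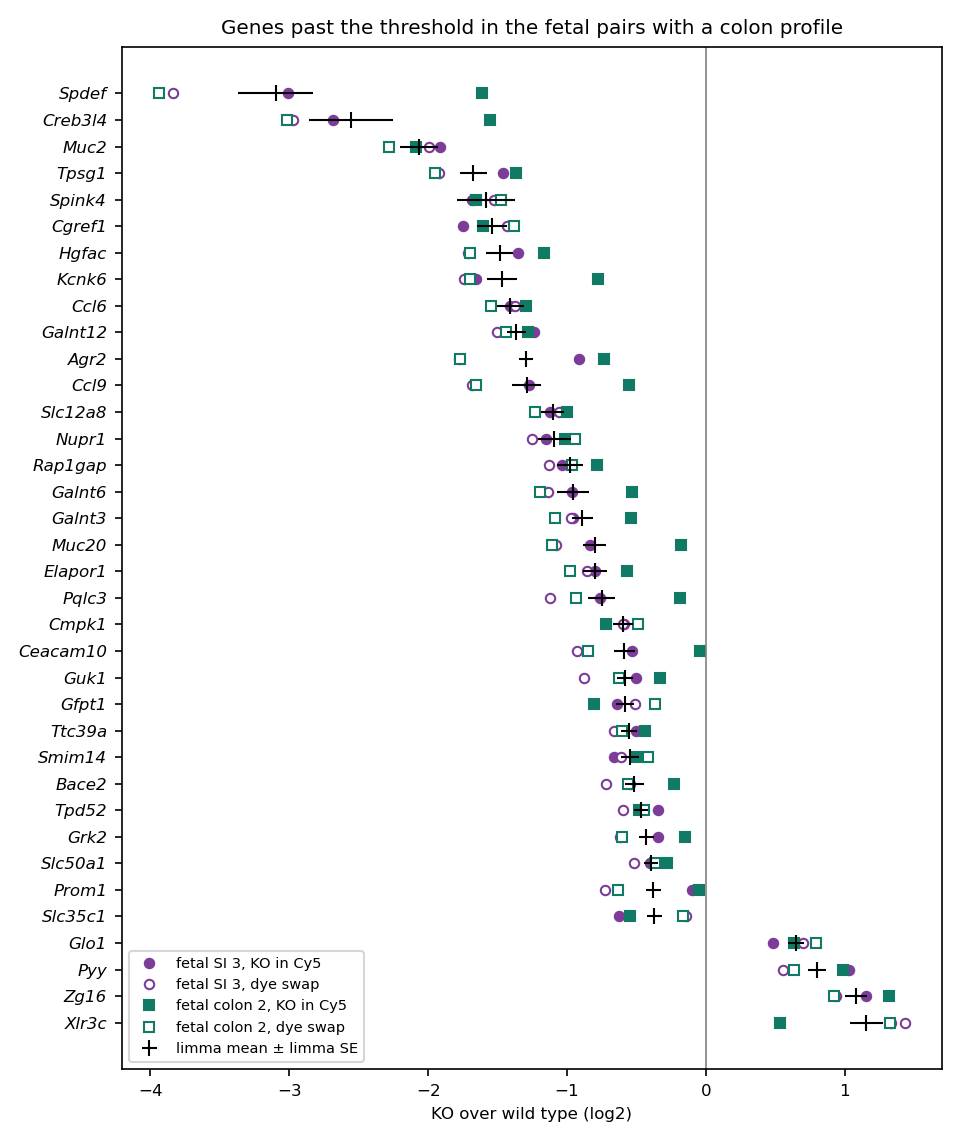
Log2 ratio of KO over wild type (horizontal axis) of the 36 called genes other than a clone name (vertical axis), with 1 point for each of the 4 arrays of the S3 and C2 pairs and limma's mean ± its SE, which pools the spread of all sets. No gene has arrays on both sides of 0, and Spdef and Creb3l4 have the widest spread because the first C2 array lies nearer 0.

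Among the genes that fell, the promoters of 4 are shown because they belong to genes the results turn on: the mucin, its isomerase, the tryptase and the bZIP factor. They are the 250 bases before the gene's start in RefSeq (GRCm38.p6), written 5′ to 3′ on the gene's strand, with the letters GGAT or their reverse complement ATCC in capitals. Muc2 is at chr7:141690090-141690339 (plus strand), Agr2 at chr12:35992675-35992924 (plus), Tpsg1 at chr17:25369023-25369272 (plus) and Creb3l4 at chr3:90243513-90243762 (minus).
Muc2: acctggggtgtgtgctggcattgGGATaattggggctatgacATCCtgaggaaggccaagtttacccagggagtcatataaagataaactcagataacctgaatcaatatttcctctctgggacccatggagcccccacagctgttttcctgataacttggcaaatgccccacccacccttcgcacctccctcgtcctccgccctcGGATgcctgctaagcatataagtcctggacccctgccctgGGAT
Agr2: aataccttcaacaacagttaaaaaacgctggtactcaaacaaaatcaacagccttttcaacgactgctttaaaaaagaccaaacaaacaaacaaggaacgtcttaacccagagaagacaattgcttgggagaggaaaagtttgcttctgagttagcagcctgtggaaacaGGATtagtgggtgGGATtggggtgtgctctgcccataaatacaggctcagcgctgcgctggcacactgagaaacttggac
Tpsg1: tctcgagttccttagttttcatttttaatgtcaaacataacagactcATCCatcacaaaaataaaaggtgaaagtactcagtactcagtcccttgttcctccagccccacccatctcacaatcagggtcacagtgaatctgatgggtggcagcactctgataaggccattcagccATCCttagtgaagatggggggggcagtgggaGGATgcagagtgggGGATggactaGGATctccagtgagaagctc
Creb3l4: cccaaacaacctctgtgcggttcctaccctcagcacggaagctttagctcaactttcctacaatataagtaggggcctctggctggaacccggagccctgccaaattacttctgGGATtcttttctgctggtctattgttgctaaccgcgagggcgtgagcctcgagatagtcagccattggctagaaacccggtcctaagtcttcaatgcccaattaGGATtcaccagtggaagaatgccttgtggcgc
The Muc2 stretch holds 4 matches, Agr2 2, Tpsg1 5 and Creb3l4 2. Searched on both strands, GGAT was present in 19 of the 26 promoters found for the lower genes (73.1%) and in 20059 of all 27025 promoters of the same length (74.2%). The longer CCGGAT, which contains the first motif, was in 0 of 26 and in 1324 of 27025 (4.9%). A match here is a description of letters and no measurement of binding.

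Zg16, a lectin-like protein of goblet cell granules that binds bacteria in the mucus, went the opposite way from Muc2 and Agr2. It was at 1.15 and 0.93 in the S3 pair and 1.32 and 0.92 in the C2 pair, and rose by 1.08 ± 0.08, or 2.12-fold (limma SE, n = 2 pairs, limma adjusted p = 0.00156). Its level was 16.46 and 16.57 in the KO pools against 15.42 and 15.45 in the wild type pools. Pyy, the peptide YY hormone of colonic enteroendocrine cells, was at 1.03 and 0.55 in the S3 pair and 0.98 and 0.63 in the C2 pair, and rose by 0.80 ± 0.06, or 1.74-fold (limma SE, n = 2 pairs, limma adjusted p = 0.0021). A dimmer Pyy probe gave 0.63. Glo1, the glyoxalase that clears methylglyoxal, rose by 0.65 ± 0.06 (adjusted p = 0.00366), and its probe lies 2.88 Mb from that of Spdef. Tpsg1, among the lower genes, lies 2.34 Mb away on the other side. These were the called members of a list of 40 tested genes of that stretch of chromosome 17, whose median was -0.01. The rest that rose were Xlr3c, an X-linked gene, at 1.16 ± 0.12, and a clone name.

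Among the lists, goblet genes had the most called members. Of 59 goblet genes tested, 15 fell and 1 (Zg16) rose, where 0.181% and 0.0283% of all genes did, and 50 had a ratio below 0, as had 7808 of all 17697 genes. Their median was -0.34 (-0.45 in the S3 pair and -0.26 in the C2 pair), beside 0.01 over all genes. The lists were put together with earlier results of these arrays known, so the count is no independent evidence of a direction. The summed intensity of the goblet list ran from 679863 to 717605 in the KO pools and from 849779 to 962272 in the wild type pools. Other goblet genes gave values without passing the test. Reg4, a secreted lectin, was at -1.30 ± 0.25 (adjusted p = 0.134), the forkhead gene Foxa3 at -0.59 (0.127), the trefoil peptide gene Tff3 at -0.40 (0.226) and the secreted protease Clca1 at 0.11. Ern2, the endoplasmic reticulum stress sensor of mucus cells, lay just outside the threshold at -0.81 (adjusted p = 0.0516), as did the reductase Dnajc10 at -0.43 (0.0516). Otherwise the list of 66 genes of folding and secretion in the endoplasmic reticulum had no called member and a median of -0.05. With median centring that was 0.19, against 0.16 for all genes, so the list's place relative to all genes turned too.

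Genes of the fate decision upstream of goblet maturation did not pass the test. Atoh1, the factor of the whole secretory lineage, was at -0.13, Gfi1 at -0.18, Klf4 at -0.11, the Notch ligand Dll1 at 0.36 and the Notch target Hes1 at 0.03. Of the 27 genes of Notch and secretory fate, Spdef alone was called. Of 29 genes of stem cells and Wnt targets, Prom1 fell (-0.38), and Lgr5 was at -0.13. A second Prom1 probe gave -0.24, and the Prom1 call was lost in 15 of 26 alternative ways of processing or fitting. In adult colon Prom1 ran from 0.13 to 0.26. The 27 cell cycle genes had no called member and a median of 0.13, with 1 below 0 (7808 of 17697 over all genes). With median centring the median was 0.40. Mki67, a proliferation marker, was at 0.32 (adjusted p = 0.235).

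Of the 33 enteroendocrine genes tested, Pyy alone passed, the median was 0.13, and 8 were below 0 (7808 of 17697 over all genes). The median lay 0.12 above that of all genes, and 0.04 above it with median centring. Glucagon (Gcg) was at 0.69 (adjusted p = 0.148) and chromogranin A (Chga) at 0.27. The summed intensity of the list ran from 189561 to 196907 in the KO pools and from 134397 to 141347 in the wild type pools, without overlap. This sum adds linear intensities, so bright genes weigh most, and it includes the called Pyy. On the log2 scale Pyy was at 15.96 and 16.26 in the KO pools and 15.17 and 15.45 in the wild type pools. The sum is thus no result for the list apart from Pyy. Of 22 Paneth genes tested, Nupr1 was called and the median was -0.07. The lysozyme gene Lyz1 was at 0.10 and the matrilysin gene Mmp7 at -0.59 (adjusted p = 0.36). None of 49 genes of absorptive cells and colonocytes was called, with a median of -0.08, which was 0.04 with median centring and then lay 0.12 below that of all genes.

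Summed levels of markers of other tissues did not overlap between genotypes for several lists and overlapped for others. The 18 mesenchyme genes had no called member, a median of 0.27 in the S3 pair and 0.01 in the C2 pair, and summed levels of 365442 to 391876 in the KO pools against 325994 to 370373 in the wild type pools. The 19 genes of liver-type plasma proteins had no called member and summed to 22836 to 28661 in the KO pools against 39606 to 43481 in the wild type pools. The 6 red blood cell genes summed to 104534 to 115587 and 76000 to 99515 in the same order, and the 17 smooth muscle genes to 470444 to 483067 and 437642 to 467319. The ranges of these last 3 lists do not overlap between genotypes, and no member of them was called. With 2 pools a side that alone says little. The sums of the mesothelium, urogenital and small intestine identity lists did not overlap either. Nor did those of the goblet, enteroendocrine, mucin glycosylation, stem cell and chromosome 17 lists. All remaining lists of the 27 overlapped. How many lists would separate with no effect of genotype was not worked out. The red blood cell sum was higher in the KO pools although 4 of its 6 genes had a ratio below 0. None of the 10 squamous and 12 urogenital genes tested was called. The part of such cells in the results was not tested. The plot of lists shows these members by pair.

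**Figure D4:**
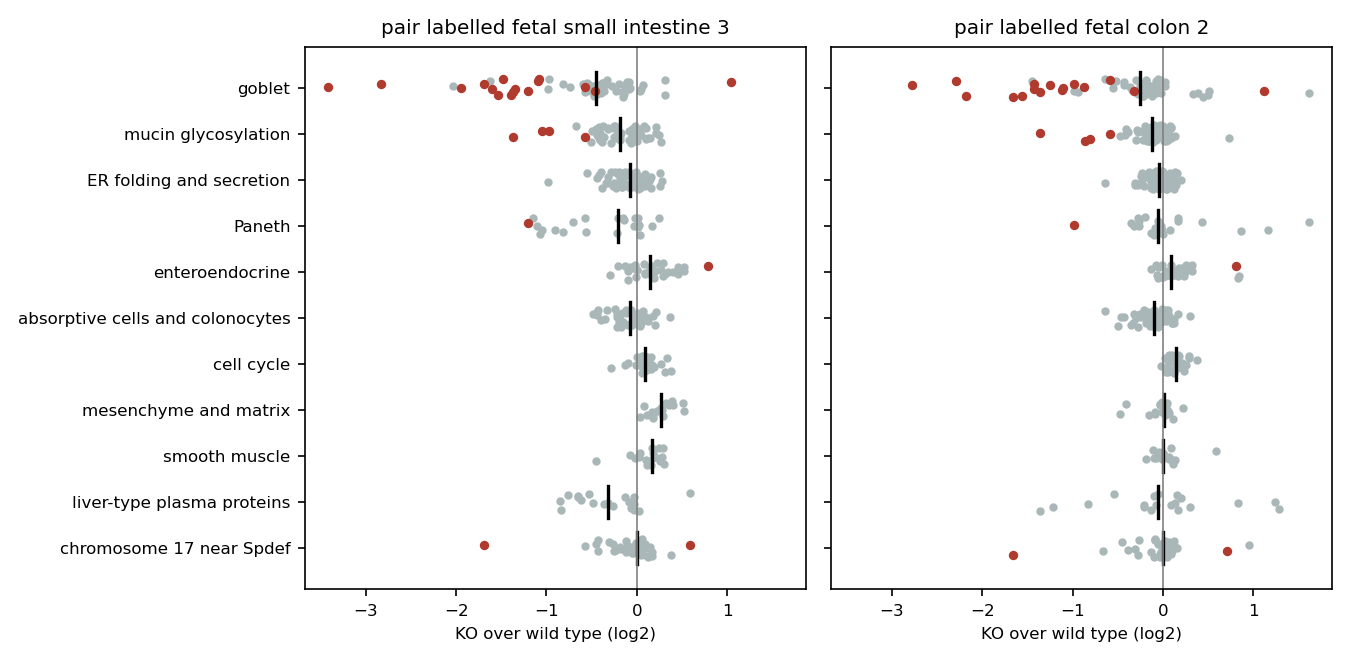
Log2 ratio of KO over wild type (one axis) of each tested member of 11 gene lists (other axis) in the S3 and C2 pairs, with called genes in red and a bar at the median. The goblet list lies lowest, at medians of -0.45 and -0.26, and the mesenchyme list has medians of 0.27 and 0.01.

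The calls moved when a pair was left out, which leaves the set with 1 replicate whose spread is assumed to be that of the other sets. With the S3 pair left out 13 of the 37 were still called, with the C2 pair left out 18, and in both cases 11: Muc2, Agr2, Zg16, Galnt12, Tpsg1, Hgfac, Ccl6, Ccl9, Cgref1, Kcnk6 and Slc12a8. Spdef, Creb3l4, Spink4, Pyy and Glo1 were each lost in 1 or both. With a trended and robust prior in limma, Zg16 alone was called. Without the slide that holds the S3 pair and the pair labelled fetal colon 1, an alternative chosen after seeing the data, 29 genes were called and 9 of the 37 were among them. Across genes, the KO over wild type ratios of the S3 and C2 pairs had a Pearson correlation of 0.33, over genes that share arrays and are not independent.

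Next the KO effect was set against that in the other fetal pairs, which had a small intestine profile at the same age. In that set 5 genes rose (0.0283%) and 14 fell (0.0791%), and 9 of the 32 lower genes were among those 14 (28.1% of the 32 and 64.3% of the 14). Of the 5 higher genes, 3 also rose there (60% of either list): Pyy (0.86), Glo1 (0.72) and Xlr3c (1.24). Muc2 was at -2.07 here and -1.47 in the other fetal pairs, Agr2 at -1.30 and -0.98, and Spdef at -3.10 and -1.67. None of these 3 differences passed the test of the difference (limma adjusted p = 0.945, 0.899 and 0.916). The test of the difference called 1 gene of 17697 (0.00565%), Zg16, and none in the lower direction, while 875 had an unadjusted p under 0.05. With each array centred on its median, which set the median difference of all genes at 0.44, it called 5991 higher and 12 lower.

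Zg16 was at 1.04 and 1.12 in the S3 and C2 pairs and at -0.37 and -0.11 in the 2 replicates of the other fetal pairs. The difference was 1.32 ± 0.11 (limma adjusted p = 0.0445). Zg16 is named for passing this test, so groups that do not overlap are no separate support. The call rests near the threshold: it was lost under 14 of 25 alternatives, among them leaving out any 1 replicate other than the second adult colon pair. With the fetal pairs grouped by their labels, Zg16 was at 0.50 in those labelled colon and was not called. Cgref1, a secreted calcium-binding protein, was at -1.59 and -1.49 in the S3 and C2 pairs and at 0.00 and -0.33 in the other fetal replicates, a difference of -1.37 (adjusted p = 0.115). Ccl6 went the opposite way, at -1.39 and -1.42 against -2.77 and -2.59, a difference of 1.27 (adjusted p = 0.115). Ccl9 was at -1.29 here and -2.05 there. For Galnt3 the values were -0.89 and -0.17, and for Muc20 -0.80 and 0.00. None of these 5 passed the test of the difference. They were chosen by a small p of this same difference, so values that do not overlap between the sets are no separate support.

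Against adult colon, the older stage of the organ whose profile these pairs carried, more genes differed. In adult colon 658 genes rose (3.72%) and 1013 fell (5.72%). Of the 32 genes that fell in the fetal pairs, 27 also fell there (84.4% of the 32 and 2.67% of the 1013), and 1 of the 5 that rose, Glo1, rose there. The adult set has 3 pairs and the fetal set 2, so counts of calls are not of equal reach. The test of the difference called 113 genes with the higher ratio in the fetal pairs (0.639%) and 70 with the lower (0.396%), beside 3410 at an unadjusted p under 0.05. The balance of directions moved with the scaling: 18 and 18 from the scanner's processed signals, 87 and 82 without background subtraction, and 19 and 3 with median centring, where the median difference of all genes was 0.22.

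The goblet genes Muc2, on its brightest probe, and Agr2 had lower ratios in the fetal pools. Muc2 was at -1.95 and -2.18 in the S3 and C2 pairs and at -0.81, -1.10 and -1.05 in the adult colon pairs, a difference of -1.08 ± 0.17 (limma adjusted p = 0.041). Agr2 was at -1.34 and -1.25 against -0.55, -0.50 and -0.64, a difference of -0.73 ± 0.07 (adjusted p = 0.00704). Both passed the test on these same values, so groups that do not overlap are no separate support. The Muc2 difference was near the threshold, and its call was lost in 15 of 25 alternatives, among them leaving out any 1 replicate of the fetal or adult colon sets. With the mean of all Muc2 probes the difference was -0.05 (adjusted p = 0.733). Galnt12 differed by -0.50 in the same direction (adjusted p = 0.0465). Spdef did not pass, at -3.10 against -3.69 (adjusted p = 0.398). The wild type level of Muc2 was 13.61 on average in the fetal pools and 16.76 in adult colon, and that of Agr2 17.14 and 17.18.

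Zg16 and Pyy were higher in ratio in the fetal pools. Zg16 was at 1.04 and 1.12 against -0.30, -0.15 and -0.41 in adult colon, where it fell (-0.29, adjusted p = 0.0345), a difference of 1.37 ± 0.10 (limma adjusted p = 0.0041). Pyy was at 0.79 and 0.81 against 0.04, 0.27 and 0.18, a difference of 0.64 ± 0.08 (adjusted p = 0.026). The Zg16 call was lost without the C2 pair. Nupr1 fell in both, by 1.09 in the fetal pools and 2.21 in adult colon, a difference of 1.12 ± 0.16 (adjusted p = 0.0321), which was lost in 5 of the 9 cases that leave out 1 replicate.

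The widest differences came from genes that rose in adult colon and did not pass the test in the fetal pairs. Akr1c21, an aldo-keto reductase of steroid metabolism, ran from 0.21 to 0.41 in the fetal pairs and from 3.91 to 4.83 in adult colon, a difference of -3.98 ± 0.23 (limma adjusted p = 0.00215). Mmp7, the protease that activates Paneth cell defensins, ran from -0.81 to -0.36 against 2.53 to 3.37, a difference of -3.50 ± 0.24 (adjusted p = 0.00285). Il1rl1, the receptor for interleukin 33, differed by -1.27 ± 0.21 (adjusted p = 0.0419), and in the fetal KO channel it was well above background on 1 of 4 arrays. Gata2, a transcription factor, was at 0.00 in the fetal pools and 1.12 in adult colon, a difference of -1.12 ± 0.10 (adjusted p = 0.0067). C2cd4b differed by -1.02 ± 0.17 (adjusted p = 0.0419). Leaving out any 1 replicate kept the calls of Akr1c21 and Mmp7, while those of Il1rl1 and C2cd4b were lost in 8 and 7 of the 9 cases. The call of Gata2 was lost without the C2 pair.

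Other genes were lower in adult KO colon and did not pass the test in the fetal pairs. Meg3, a long noncoding RNA of an imprinted locus, was at 0.20 against -1.47, a difference of 1.66 ± 0.17 (limma adjusted p = 0.0114). Slc20a1, a phosphate transporter, differed by 1.27 ± 0.20 (adjusted p = 0.0392), the collagen gene Col8a1 by 1.27 ± 0.14 (0.0188) and Tpd52l1 by 1.25 ± 0.13 (0.0113). Tpd52l1 was below 0 in both sets, at -0.31 and -0.14 in the fetal pairs and from -1.57 to -1.32 in adult colon. Meg3 was not called without the S3, the C2 or the first adult colon pair, nor Col8a1 without the last, nor Tpd52l1 without the S3 or the C2 pair, and Slc20a1 was lost in 6 of the 9 cases. Smooth muscle and mesenchyme markers moved in the adult set beside them: the 17 smooth muscle genes had a median of -0.31 in adult colon and 0.09 in the fetal pairs, with adult summed levels of 274716 to 404890 in KO pools and 388027 to 454183 in wild type pools. Mesenchyme sums were 119611 to 140422 and 140394 to 178217 in the same order. The 20 pancreas genes had a median of -1.73 in adult colon and 0.01 in the fetal pairs, with adult sums of 9617 to 137595 in KO pools and 11462 to 1104543 in wild type pools. The part of these cells in the differences was not tested. The count of differences moved with most single replicates left out, but not all. It was 17 and 69 without the first and second adult colon pairs and 182 without the third, against 183 with all. Leaving out a replicate of any other set leaves that set with 1 replicate, and the count fell each time. Without the slide of the S3 pair it was 1.

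**Figure D5:**
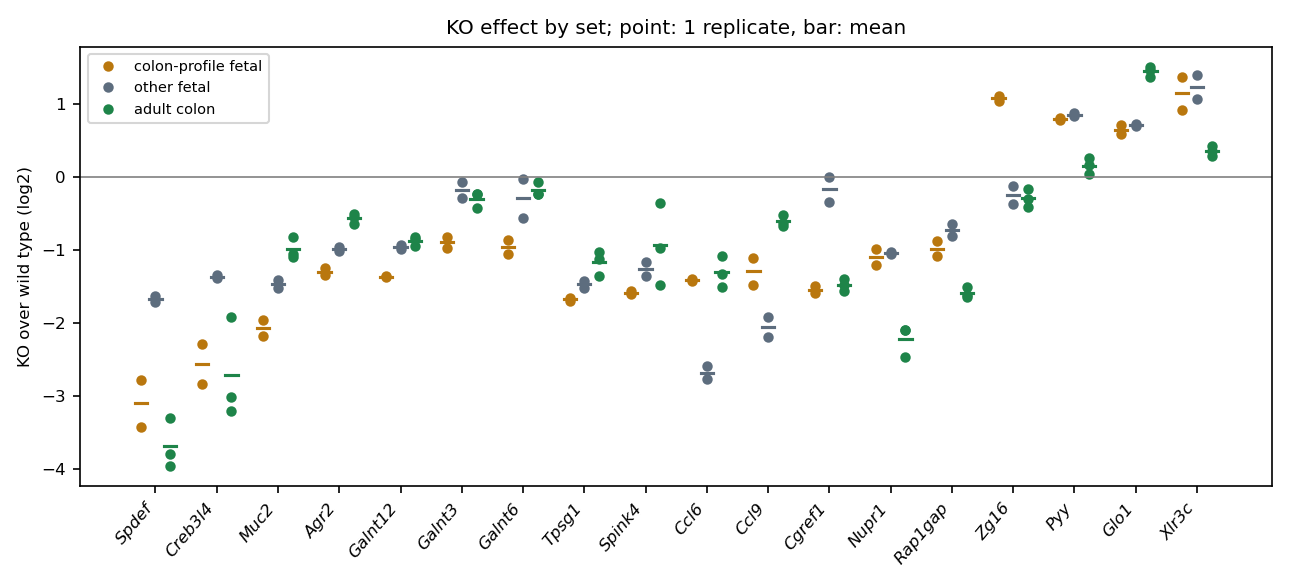
Log2 ratio of KO over wild type (vertical axis) of 18 genes in each replicate of 3 sets: the S3 and C2 pairs, the other fetal pairs and adult colon. Zg16 lies above 0 in the S3 and C2 pairs, at 1.04 and 1.12, and below 0 in the other sets, while Cgref1 is at -1.54 on average in the S3 and C2 pairs, -1.47 in adult colon and -0.17 in the other fetal pairs.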

How the data were processed

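The members and the gene lists were chosen with earlier results of these data known. Per the labels, pools of whole-organ RNA (500 ng, linear amplification, Cy3 and Cy5) were hybridised as array and dye swap. Per the file headers and the submitters' processing notes, spots were extracted with Agilent Feature Extraction 9.5.3, and the deposited scanner files give intensity on a linear scale and a log10 ratio of red over green. The deposited series table holds log2 ratios whose arrays have a median of 0, with 48.8% to 52.3% of values exactly 0 on the 4 arrays described, and it served as an alternative. Its scale and direction were read by setting it against the scanner ratios. The Pearson correlation was 0.53 on the first C2 array and 0.825 to 0.856 on the rest of those 4 arrays. The rule behind the zeros of the series table is not given in the sources used here.

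Mean signals were background corrected (normexp, offset 50) and normalised by loess within arrays in limma 3.58.1 (R 4.3.3), without control and outlier spots. Ratios were turned to KO over wild type and a dye swap averaged with its array. Channel levels came from loess and Aquantile. The pairs labelled fetal small intestine 1 and 2 differed by less than other pairs (variance ratio 0.56, against 1.44 to 6.71) and counted as 1 replicate. Of 41174 probes, 25990 were well above background on all arrays of a set and genotype, and the brightest per gene gave 17697 genes (39.8% to 71.6% of probes were above background per array). limma fitted 9 replicates in 4 sets (5 residual and 3.04 prior degrees of freedom, Benjamini-Hochberg over all genes, threshold 0.05). Groups came from the labels except the 2 fetal sets, made by tissue profile. Names came from the files or from RefSeq (GRCm38.p6): 23374 probes by accession, 6733 by symbol and 2919 by older symbol, and 8148 kept the file's name. Named genes were a fixed panel, up to 12 called genes each way with the largest change, up to 3 members of each of 27 lists with the smallest adjusted p, and up to 6 each way for a difference; where under 5 genes passed, up to 5 were given by value only. Text outside that rule gives genes near the threshold or called members of a list. The limma fit was tested on simulated replicate ratios, and the steps before it were not. The number of pools limits the precision.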

Additional observations from a re-analysis of the deposited data

Results flagged for a closer look

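The KO effect differed between the fetal pairs with a colon profile and another set, by the limma test of the difference itself, for the genes below. Against the other fetal pairs it was Zg16, higher by 1.32.

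Against adult colon, the difference was positive for Meg3 (1.66), Zg16 (1.37), Slc20a1 (1.27), Col8a1 (1.27), Tpd52l1 (1.25) and Nupr1 (1.12). Within the single slide that holds the C2 pair and the third adult colon pair, the same differences were 1.95, 1.53, 1.22, 1.04, 1.43 and 1.49, in that order. It was negative for Akr1c21 (-3.98), Mmp7 (-3.50), Il1rl1 (-1.27), Gata2 (-1.12), Muc2 (-1.08) and C2cd4b (-1.02). Within that slide these were -4.62, -3.72, -1.63, -1.35, -1.14 and -0.83. The genes were chosen with these same pairs in the fit, so a shared direction within the slide is no separate support, and with 1 pair a side it has no test.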

How the results depend on the processing

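The 37 genes called for the KO effect kept their direction in every one of 26 alternatives in which they were tested, but the counts moved. From the scanner's processed signals 67 genes were called, without background subtraction 118, with median centring 21, with the pairs labelled fetal small intestine 1 and 2 kept separate 74, with arrays as observations and a dye term 262, with a trended and robust prior 1 (Zg16) and with the deposited log2 ratios 233. The difference from the other fetal pairs had 1 call, and in the same order 3, 3, 6003, 3, 12, 1 and 82. It had 0 without a filter, with the 2 sets fitted alone or with the pair labelled fetal colon 1 as its own term. The difference from adult colon had 183, and 36 from processed signals, 22 with median centring, 696 with those pairs separate, 1452 with the dye term, 5 with the trended prior, 12 with the sets alone and 60 with that pair as its own term. Leaving out 1 replicate gave 25 to 46 calls for the KO effect, 0 to 4 for the difference from the other fetal pairs and 5 to 182 for that from adult colon. Without the slide of the 2 pairs that go against their labels, chosen after seeing the data, the 3 counts were 29, 2 and 1. Other alternatives stayed within 1.5 times the count. The cause of these moves was not tested.

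Replicate numbers were not used to pair the samples. Same-numbered samples correlated at -0.39 to 0.08 in their deviations and others at -0.39 to 0.39. These values cannot settle whether the numbers pair samples, because the deviations of a set of 2 pairs mirror each other. The highest values joined fetal pairs of the same label. The S3 pair was at 0.33 and 0.39 with fetal small intestine 1 and 2, and the C2 pair at 0.39 with fetal colon 1. Deviations of the S3 and C2 pairs mirror each other, so the lowest values repeat these with the sign turned. The test of the difference treated the 2 fetal sets as unpaired. With the replicate number as a block 7 genes were called for the KO effect, 1 for the difference from the other fetal pairs and 320 for that from adult colon. Signal over background limits Ceacam10 and Il1rl1, whose KO channel was dim on 2 and 3 of 4 arrays.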

Other observations

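Some genes had KO over wild type ratios that differed widely between the S3 and C2 pairs, and they are given here as values with no test. They were ranked, after the data were seen, by the gap between the nearest arrays of the S3 and C2 pairs, leaving out X and Y genes, and the 10 widest in each direction were kept. The gene named ccdc198 in the files had a log2 ratio of -4.32 in the S3 pair and 0.09 in the C2 pair. The pairs labelled fetal small intestine 1 and 2 were at -4.52 and the pair labelled fetal colon 1 at 0.04. Rrp7a, which acts in ribosome assembly, was at 2.02 in the S3 pair and -0.48 in the C2 pair, and at 1.81 and -0.43 in the other fetal pairs in the same order. Rpgrip1 was at -1.90 and 0.15, and at -1.67 and -0.09. The integrin gene Itga9 was at 0.89 and -1.59, and at 0.47 and -1.60.

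For 16 of the 20 genes, both other fetal replicates were nearer to the pair of the same label than to the other pair, and for 4 (Ahsg, Creb3l3, Mt2 and Ang) they were not. The share over all genes tested was not worked out, so this count describes the 20 genes alone. The plasma protein gene Ahsg was at -0.85 in the S3 pair and 1.25 in the C2 pair, and at 0.19 and -2.69 in the other fetal pairs. The transcription factor gene Creb3l3 was at -0.04 and 1.36, and at -0.06 and -0.12. The secreted ribonuclease Ang4, among the 16, was at -0.57 and 1.62, and at -0.93 and 0.74. None of the 20 genes was called for the KO effect.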
